A study of Mus musculus with 2 samples.

Results

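The genes described here are 10 transporters that carry amino acids across the plasma membrane: Slc7a1, Slc7a3, Slc7a5, Slc7a6, Slc7a8, Slc7a11, Slc3a2, Slc1a4, Slc1a5 and Slc38a2. They were taken by symbol from the 28692 genes listed in both count matrices, and all 10 were found. Their levels were not used to choose any group of cells. They were described in cells of the GFP+ and GFP- gates, in early cones with and without a mark of cell stress, in retinal progenitors and in neurons.

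Cells import amino acids through carriers that differ in the charge of their cargo and in what they exchange it for. When amino acids run short, or when proteins misfold in the endoplasmic reticulum, the integrated stress response raises translation of the transcription factor ATF4, which switches on genes for amino acid uptake, amino acid synthesis and tRNA charging. In the retina, developing photoreceptors and dividing progenitors draw on this supply for growth, and the cystine and glutamate carriers also bear on glutathione synthesis and on neurotransmission.

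The study asked which genes and cell types the LHX4::GFP reporter marks in the embryonic mouse retina. LHX4::GFP is a bacterial artificial chromosome insertion, strain Tg(Lhx4::EGFP)KN199Gsat/Mmucd, in which regulatory DNA around Lhx4 drives EGFP, and the mice were kept as heterozygotes. Retinas of 2 litters at E14.5 were dissociated and pooled before sorting, and the GFP+ gate and the GFP- gate each gave 1 droplet library. Both gates therefore came from the same transgenic embryos, with no other treatment or allele, and no animal could be followed as a replicate. With 1 library per gate, none of the differences below has a replicate check. No test was run, and all intervals are 95% intervals for counting error only, although cells of 1 library share their handling.

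After filtering, 3689 GFP+ cells (median 3894 UMIs, unique molecular identifiers that each count 1 captured molecule) and 3389 GFP- cells (median 8848 UMIs) were kept. The filter on genes per cell removed 39 GFP+ cells and 1055 GFP- cells. The libraries shared 20 cell barcodes. Among GFP+ cells, 3379 fell in cone-like clusters, with cone markers at 6118 CPM (UMIs per 1000000 of the group) in sum against 14.1 in GFP- progenitor-like cells. GFP- cells fell in multipotent RPC-like clusters (retinal progenitor cells, 1843 cells), a neurogenic RPC-like cluster (284), RGC/AC precursor-like clusters (465, precursors of retinal ganglion and amacrine cells), AC/HC-like clusters (363, amacrine and horizontal cells) and an RGC-like cluster (231). Progenitor-like below means both RPC-like classes (2127 cells) and neuron-like means AC/HC-like and RGC-like cells (594). Multipotent RPC markers summed to 6142 CPM in progenitor-like cells and to 694 in the GFP+ cone-like cells. The endothelial marker Cldn5 led 1 AC/HC-like cluster and stood at 147.5 CPM in neuron-like cells against 0.871 in progenitor-like cells. In AC/HC-like cells it stood at 297 CPM, where all endothelial markers summed to 303, and its part in the neuron-like values was not tested.

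Cells with at least 1 UMI of Chac1, an enzyme that degrades glutathione, or of Trib3, a pseudokinase of the stress response, are called stressed here. This is a working name for cells with those 2 transcripts, and dissociation and sorting were not controlled for. By this rule 151 of 3379 GFP+ cone-like cells (4.47%), 133 of 2127 GFP- progenitor-like cells (6.25%) and 5 of 594 neuron-like cells (0.842%) were stressed. With every cell thinned to 2500 UMIs, the shares were 3.43% of cone-like cells, 2.21% of progenitor-like cells and 0.168% of neuron-like cells, so the order of cones and progenitors turned with depth. Stressed and other cells were of like depth within each class, with medians of 4035 and 3871 UMIs in cones and of 9296 and 9204 UMIs in progenitors. The median mitochondrial share was 1.97% in stressed and 2.53% in other cones.

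Promoter sequence was examined for the motif through which ATF4, paired with a C/EBP factor, contacts DNA. The search covered 250 bases before to 50 bases after each RefSeq start (GRCm38.p6) for TGATGNAA on either strand, and 7 of the 10 genes had a window. Slc7a3, Slc7a5 and Slc1a5 had none in the table. The motif was in the window of 2 of the 7 genes, Slc7a11 and Slc1a4, against 4.51% of 27025 genes and 9 of 27 genes of a list of other ATF4 targets. The 30-base stretches around the matches are shown because both genes were among those with large ratios in stressed cones. They stand beside those of Chac1 and Trib3, whose transcripts defined the stressed cells, and of the ATF4 targets Asns, asparagine synthetase, and Atf3, a transcription factor. All are written 5′ to 3′ on the strand of the gene, and capitals mark the match to the motif or to its reverse complement.
Slc7a11, minus strand, chr3:50443661-50443690: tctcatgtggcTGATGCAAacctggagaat
Slc7a11, minus strand, chr3:50443642-50443671: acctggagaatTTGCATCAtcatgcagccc
Slc1a4, minus strand, chr11:20332699-20332728: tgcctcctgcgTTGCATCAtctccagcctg
Chac1, plus strand, chr2:119351038-119351067: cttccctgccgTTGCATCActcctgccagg
Trib3, minus strand, chr2:152344028-152344057: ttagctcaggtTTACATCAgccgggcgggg
Asns, minus strand, chr6:7693214-7693243: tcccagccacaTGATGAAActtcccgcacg
Atf3, minus strand, chr1:191183425-191183454: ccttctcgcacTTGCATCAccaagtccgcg
Slc7a11 held 2 matches on opposite strands, beginning 66 and 47 bases before the start. The match of Slc1a4 began 4 bases before its start, that of Chac1 193 bases before and that of Trib3 at base 15 after the start. A match is only a run of letters, and no binding was measured.

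In the early cones, 8 of the 10 transporters were at least 2-fold higher in stressed than in other cells and none was at least 2-fold lower. The background was 6.33% of 12007 genes higher and 4.56% lower, counted over genes with at least 20 UMIs in both groups together. The 10 genes were chosen with earlier results of these data known. Their counts beside the background, here and below, are therefore descriptions only. The median log2 ratio of the members was 2.51 and that of all genes 0.02. The groups held 151 stressed and 3228 other cone-like cells of the same library, and levels below are CPM, the UMIs of a gene per 1000000 UMIs of the group. The libraries read 3′ ends, so a level is set against that of the same gene in other cells and not against other genes.

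**Figure D1:**
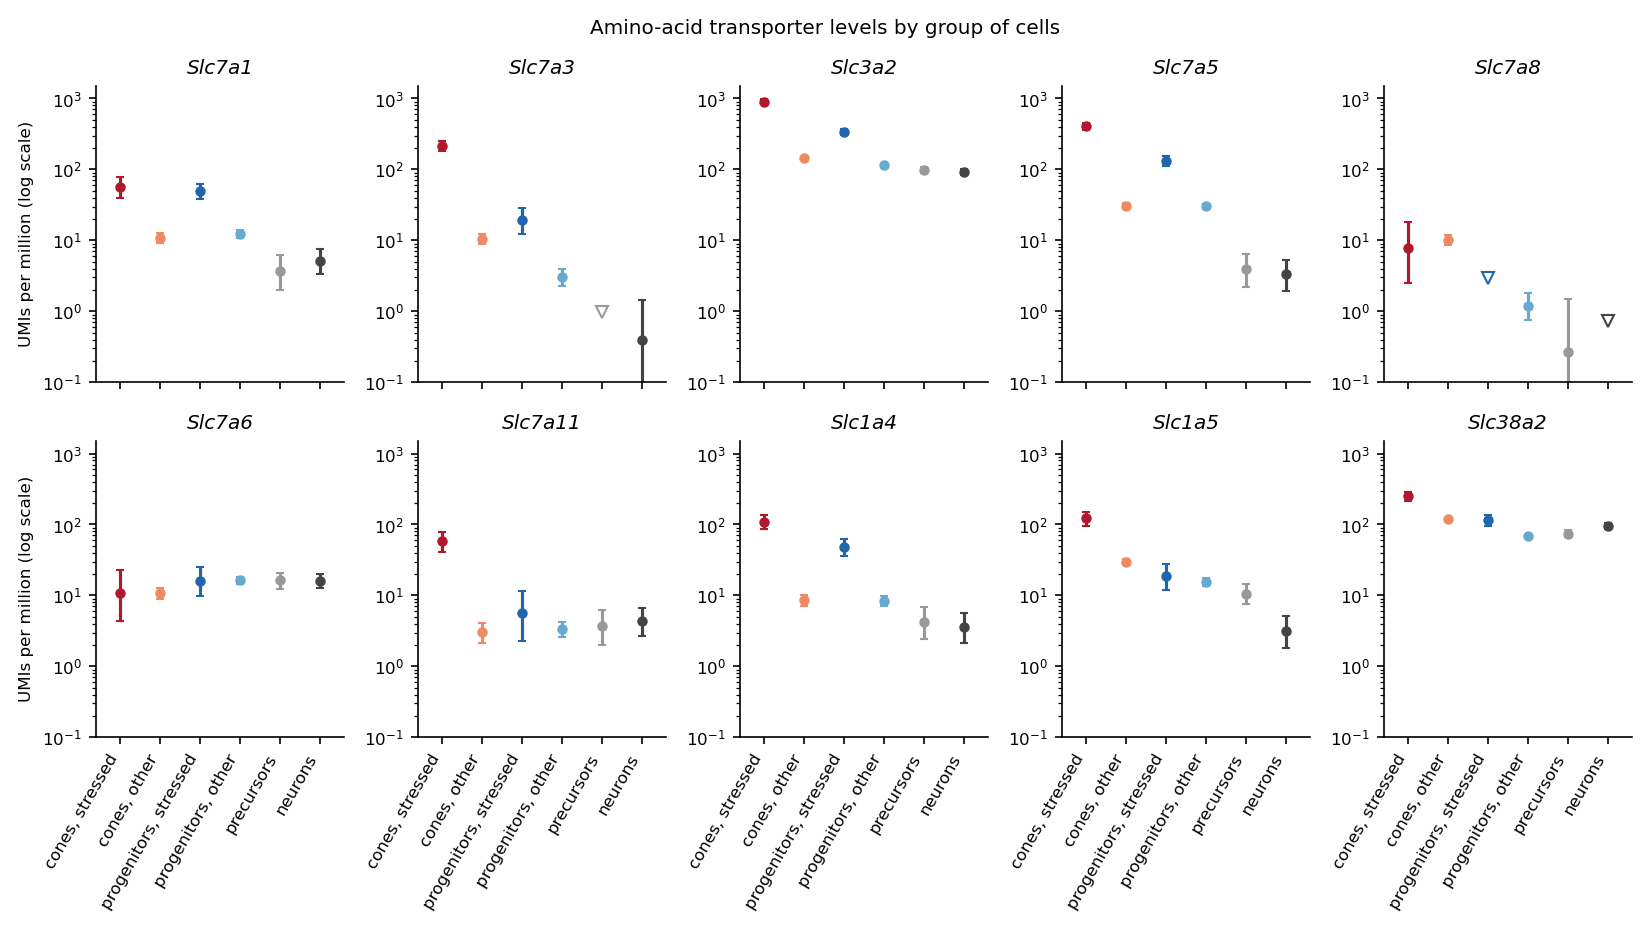
Level of each transporter (CPM, log axis) in 6 groups of cells: stressed and other GFP+ cone-like cells, stressed and other GFP- progenitor-like cells, GFP- precursors and GFP- neurons. Points are summed counts with 95% Poisson intervals, and open triangles mark the upper limit where no UMI was found. Slc7a3 stood at 214 in stressed cones and at 10.5 in other cones, whereas Slc7a6 stood between 10.7 and 16.3 in all 6 groups.

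The cationic amino acid carriers Slc7a1 and Slc7a3 import arginine, lysine and ornithine. Slc7a3 (chrX:101079210-101086020, minus strand) stood at 214 CPM (interval 179 to 252, 137 UMIs) in stressed cones and at 10.5 (8.84 to 12.4, 139 UMIs) in other cones. The ratio was 20.3 (15.9 to 25.9), and the intervals were far apart. The 151 stressed cones were a small share of all kept cells. They held 36.1% of the Slc7a3 UMIs in kept cells of both libraries, close to the 36.6% held by the 3228 other cones. Slc7a1 (chr5:148327410-148399904, minus strand) stood at 56.1 in stressed and 10.97 in other cones, a ratio of 5.12 (3.45 to 7.41).

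Slc3a2 is the heavy chain that brings the light chains of the SLC7 family to the membrane, where each light chain sets the cargo. Slc3a2 (chr19:8706882-8723369, minus strand) stood at 899 CPM (827 to 976) in stressed cones and at 143 (136 to 149) in other cones, a ratio of 6.30 (5.73 to 6.92). Its partner Slc7a5 (chr8:121881150-121907694, minus strand), which carries leucine and other large neutral amino acids, stood at 404 against 30.7, a ratio of 13.1 (11.2 to 15.4). The light chain Slc7a11 (chr3:49892526-50443614, minus strand), which imports cystine in exchange for glutamate, stood at 57.7 (40.6 to 79.5, 37 UMIs) against 3.02 (2.16 to 4.12, 40 UMIs). Its ratio was 19.1 (11.9 to 30.6), on few UMIs in both groups.

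The intervals of the other light chains lay below those of Slc7a5 and Slc7a11. Slc7a6 (chr8:106168857-106198706, plus strand), which exchanges cationic for neutral amino acids, stood at 10.9 in stressed and 10.7 in other cones, and the interval of the ratio ran from 0.401 to 2.15. Slc7a8 (chr14:54722209-54781946, minus strand), a carrier of neutral amino acids and thyroid hormone, stood at 7.79 on 5 UMIs against 10.2 on 135 UMIs, with an interval of the ratio from 0.244 to 1.83. At these counts a 2-fold higher Slc7a6, or a 2-fold lower level of either gene, was within the counting error.

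The neutral carriers Slc1a4 and Slc1a5 exchange alanine, serine, cysteine and, for Slc1a5, glutamine, and Slc38a2 imports small neutral amino acids together with sodium. Slc1a4 (chr11:20302180-20332713, minus strand) stood at 109 CPM in stressed and 8.55 in other cones, a ratio of 12.8 (9.34 to 17.4). Slc1a5 (chr7:16781340-16798274, plus strand) stood at 122 against 30.02, a ratio of 4.05 (3.13 to 5.17). Slc38a2 (chr15:96687392-96699730, minus strand) stood at 249.4 against 119, a ratio of 2.102 (1.77 to 2.47), and was the called member nearest the 2-fold limit. It was no longer past 2-fold with TMM scaling (log2 ratio 0.98), in thinned cells (0.95) or with Ddit3 or Atf3 in place of Chac1 or Trib3 (0.28), a rule under which Slc1a5 was not past 2-fold either (0.68).

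**Figure D2:**
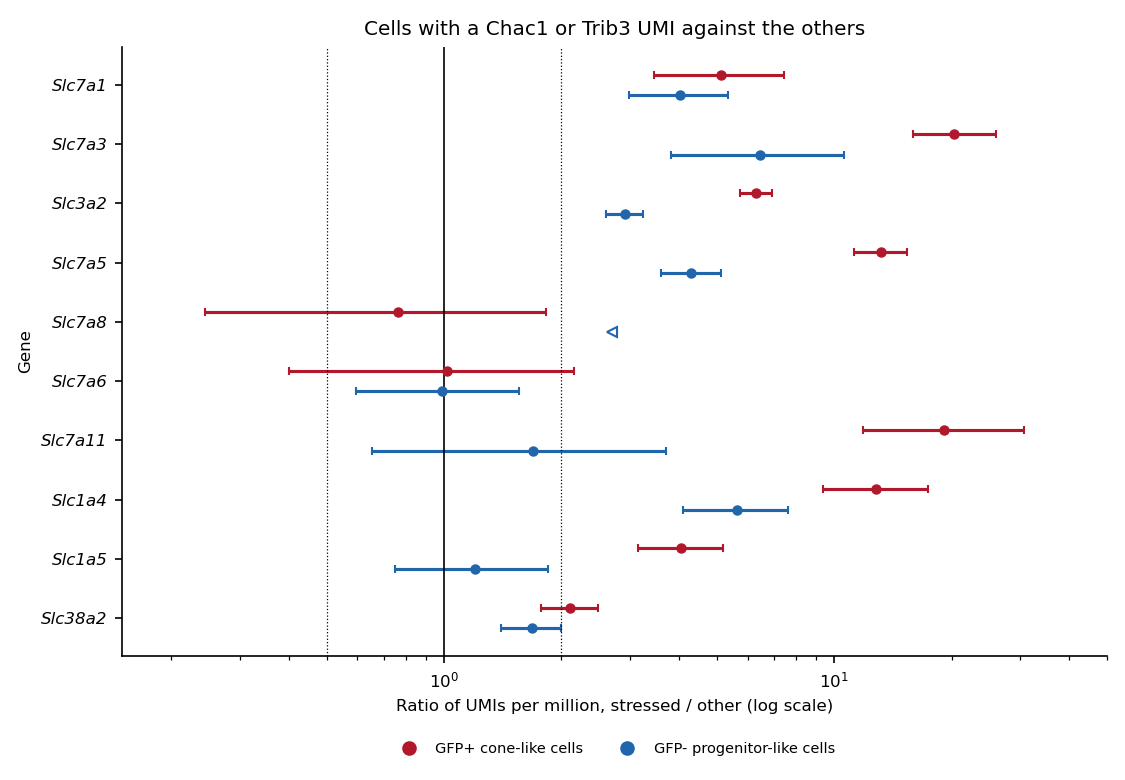
Ratio of CPM in stressed over other cells (log axis) for each transporter, in GFP+ cone-like cells and in GFP- progenitor-like cells, with 95% intervals; dotted lines mark 2-fold higher and lower. An open triangle marks the upper limit for Slc7a8 in progenitors. The ratio of Slc7a11 was 19.1 in cones and 1.69 in progenitors, and that of Slc7a6 was near 1 in both.

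The levels of Slc3a2, Slc7a11 and Slc7a5 were higher in cones with 2 to 3 stress UMIs than in cones with 1, with intervals that did not overlap. How often this held over all genes was not worked out, so it is a description only. Cones with 0, 1, and 2 to 3 UMIs of Chac1 and Trib3 together numbered 3228, 93 and 49. Slc3a2 stood at 143, 701 (622 to 788) and 1255 (1107 to 1418) CPM in these bins. Slc7a11 stood at 3.02, 37.6 (21.0 to 62.0) and 102 (63.2 to 156). Slc7a5 stood at 30.7, 343 (288 to 406) and 521 (427 to 629). For Slc7a3, the levels of 170 (132 to 216) and 268 (202 to 348) overlapped between the upper 2 bins, as did those of Slc1a4, 95.2 and 131, and of Slc7a1, Slc1a5 and Slc38a2. Slc7a8 stood at 10.2, 7.51 and 4.87 in these 3 bins and Slc7a6 at 10.7, 10.0 and 4.87, both on few UMIs in the upper 2. In progenitors Slc3a2 stood at 115, 323 (281 to 368) and 345 (291 to 405), so the upper bins overlapped. Only 9 cones held 4 or more such UMIs, too few to extend the order. In these cones Slc3a2 (1058), Slc7a5 (407), Slc7a1 (54.3), Slc1a5 (109) and Slc7a11 (27.1 on 1 UMI) stood lower than at 2 to 3. Slc7a3 (380), Slc1a4 (136), Slc38a2 (326), Slc7a6 (54.3 on 2 UMIs) and Slc7a8 (27.1 on 1 UMI) stood higher. All these intervals overlapped those of the bin of 2 to 3.

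**Figure D3:**
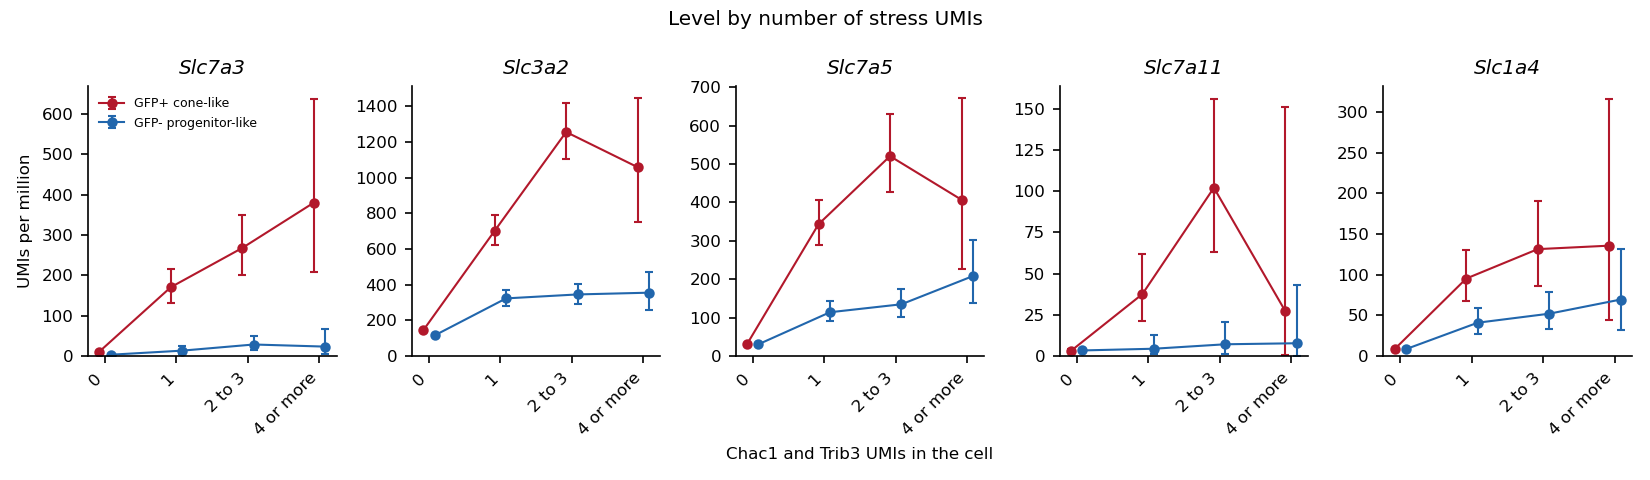
Level of Slc7a3, Slc3a2, Slc7a5, Slc7a11 and Slc1a4 (CPM, linear axes that differ between panels) by the number of Chac1 and Trib3 UMIs in the cell, in GFP+ cone-like and GFP- progenitor-like cells, with 95% Poisson intervals. In cones Slc3a2 went from 143 in cells with 0 such UMIs to 1255 in cells with 2 to 3. The bins of 4 or more hold 9 cones and 14 progenitors.

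At equal depth the differences were also seen as shares of cells. With each cell thinned to 2500 UMIs, 53.3% of stressed cones had a Slc7a5 UMI against 5.996% of other cones and 1.01% of neuron-like cells, the group with the lowest level (66.9%, 8.36% and 2.53% unthinned; the neuron-like cells had a median of 7833.5 UMIs). A Slc7a3 UMI was found in 32.0% of stressed and 2.15% of other cones and in 0.337% of neuron-like cells (46.4%, 3.10% and 0.337% unthinned). For Slc3a2 the shares were 75.3%, 25.6% and 20.9% (84.8%, 37.0% and 53.4% unthinned). No cell type known to lack Slc3a2 was at hand, so the part of free RNA in its low shares was not tested.

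Several transporters were found together in the same stressed cones. At equal depth, 59 of 150 stressed cones (39.3%, 31.5% to 47.6%) held UMIs of at least 4 of the 10 genes, against 1.89% of other cones. The median stressed cone held 3 of the 10 and the median other cone 1. Slc3a2 was found in 91.3% of the stressed cones that held a Slc7a5 UMI, its light chain, and in 57.1% of the stressed cones that held none. The gap was not particular to them, with 56.8% and 23.6% in other cones and 41.3% and 23.6% in other progenitors. In stressed progenitors the shares were close, at 59.4% and 57.4%. In neuron-like cells they were 16.7%, of only 6 cells with Slc7a5, and 20.9%. A cell with more captured RNA of any kind shows more genes at once, and thinning fixes only the total. Genes that are each found in many stressed cones also meet in the same cell without any link between them. The share of cells reached in that way was not worked out.

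**Figure D4:**
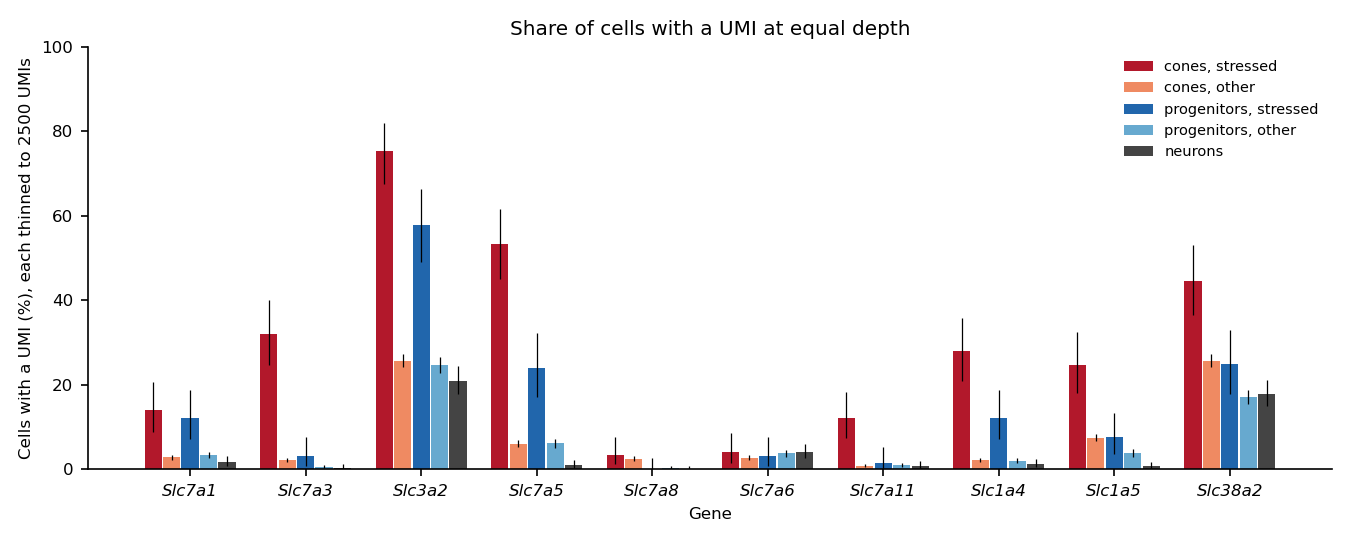
Share of cells with at least 1 UMI of each transporter after thinning every cell to 2500 UMIs (bars, linear axis from 0 to 100%), in stressed and other cones, stressed and other progenitors, and neurons, with 95% Clopper-Pearson intervals. For Slc7a5 the shares were 53.3% of stressed cones, 24.1% of stressed progenitors, about 6% of other cones and other progenitors, and 1.01% of neurons.

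A cone-like cluster of 176 GFP+ cells, 95 of them stressed, was led by Slc7a3, Cebpb, Trim66, Atf3 and Chac1, although the 10 transporters and the ATF4 target list had been kept out of the genes used for clustering. Against the other cone-like clusters, 8 of the 10 transporters were at least 2-fold higher in it and none lower, beside 6.68% of 12007 genes higher and 5.11% lower, as a description of a cluster that is led by such genes. Among its 81 cells with no Chac1 or Trib3 UMI, Slc7a3 stood at 174 CPM (131 to 226), Slc7a5 at 379 (314 to 452) and Slc3a2 at 767 (674 to 869). These intervals overlapped those of the stressed cones for all 3 genes, so the cones without a stress UMI included cells with levels like those of stressed cones. Leaving the cluster out on both sides, a setting chosen after the data were seen, lowered the log2 ratios of stressed to other cones. They went from 4.34 to 2.98 for Slc7a3, from 4.25 to 2.72 for Slc7a11 and from 3.72 to 2.62 for Slc7a5. Slc1a4 went from 3.67 to 2.18 and Slc1a5 from 2.02 to 0.45. Without the cluster Slc7a8 stood at least 2-fold lower in stressed cones, with a log2 ratio of -1.30 on few UMIs. The cluster depended on the processing. A cluster led by Slc7a3 also formed with 20 principal components, at resolution 0.8 and with a mitochondrial limit of 0.1. None formed without regression or without the upper limit on genes per cell. There 148 and 138 stressed cells lay in the largest cone-like cluster, of 2208 and 1977 cells.

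Fewer transporters passed 2-fold in stressed progenitors. In GFP- progenitor-like cells, 5 of the 10 were at least 2-fold higher in 133 stressed than in 1994 other cells and none was lower, against 2.79% of 12269 genes higher and 4.47% lower. The median log2 ratio was 1.15, with all genes at 0.01. Slc7a8, which gave no ratio here, entered this median at a ratio of 1. Slc7a3 stood at 19.4 CPM (24 UMIs) against 3.01 (55 UMIs), a ratio of 6.44 (3.81 to 10.6). Slc7a1 stood at 49.3 against 12.3, a ratio of 4.02 (2.98 to 5.36), close to its 5.12 in cones with overlapping intervals. Both cationic carriers were thus higher in stressed cells of both classes.

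Of the heavy chain and its light chains, Slc3a2 stood at 334 in stressed and 115 in other progenitors, a ratio of 2.90 (2.61 to 3.23). Slc7a5 stood at 131 against 30.4, a ratio of 4.30 (3.59 to 5.13). Both intervals lay below those of the cone ratios, 5.73 to 6.92 and 11.2 to 15.4. Slc7a11 stood at 5.65 on 7 UMIs against 3.34 on 61, and the interval of its ratio, 0.654 to 3.71, lay below the 11.9 to 30.6 of cones. Slc7a6 had a ratio of 0.991 (0.596 to 1.56). No Slc7a8 UMI was found in stressed progenitors, where other progenitors held 22, and no ratio could be given.

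Slc1a4 stood at 47.6 in stressed and 8.48 in other progenitors, a ratio of 5.62 (4.09 to 7.63). Slc1a5 stood at 18.6 against 15.4, and the interval of its ratio, 0.751 to 1.84, lay below that of cones, 3.13 to 5.17. Slc38a2 had a ratio of 1.68 (1.40 to 2.00). The cone and progenitor ratios came from different libraries and depths, which cannot be told apart from the cell class. Stressed cones held Chac1 and Trib3 at 228 and 148 CPM, stressed progenitors at 117 and 79.1. With cells thinned to 2500 UMIs, 76% of stressed cones and 35.3% of stressed progenitors still held a UMI of either gene. The part of this unlike marking in the ratios was not tested. Over all 153 stressed against 3236 other GFP- cells, the same 5 genes were at least 2-fold higher, against 3.12% of 13269 genes higher and 7.54% lower. Stressed progenitors also held lower summed neurogenic RPC markers (740.5 against 1209 CPM) and precursor markers (156 against 565), and the part of class mixture in the ratios was not tested.

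The remaining genes of amino acid supply were read from fixed lists, of which up to 6 genes with the most UMIs are named unless stated otherwise. Of the ATF4 target list without Chac1 and Trib3, 24 of 25 measured genes were at least 2-fold higher in stressed cones and none lower (median log2 ratio 3.10). In progenitors 22 of 26 were higher and 1 was lower (1.43 in the median). The lower one was Cbs, a gene of cysteine synthesis named after its values were seen. It rested on 1 UMI against 37, and the interval of its ratio ran from 0.00984 to 2.37. Examples in cones were Atf4 itself (999 against 382 CPM) and Ddit3, the stress factor CHOP (457 against 87.9). Others were Eif4ebp1, a brake on translation (563 against 52.9), and Mthfd2, a mitochondrial folate enzyme (600.02 against 50.1). The measured target not past 2-fold in cones was Ddit4, which had more UMIs than any of them but Atf4. It stood at 210 against 107, a ratio of 1.96 (1.63 to 2.34). Of 20 tRNA synthetases, 11 were higher in cones (median 1.52, 6.33% of all genes higher) and 7 in progenitors (0.54, 2.79% of all genes higher). Sars, for serine, had a ratio of 4.12 and Gars, for glycine, of 5.14 in cones, while Farsa, for phenylalanine, stood at 0.909.

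Carriers of amino acids outside the 10 mostly stood apart from this pattern. Of 18 measured other carriers, 2 were at least 2-fold higher and 1 was lower in stressed cones, with a median log2 ratio of 0.18, near the shares of all genes (6.33% and 4.56%). Slc38a1, a glutamine carrier, had a ratio of 1.34, Slc1a2, a glutamate carrier, of 1.20, and Slc6a6, the taurine carrier, of 0.632. The genes past 2-fold, named after their values were seen, were the glutamate carrier Slc1a7 (5.44), the glycine carrier Slc6a9 (5.06) and Slc43a1 (0.261, 1 UMI against 79). In progenitors 2 of 20 were higher, Slc6a9 (6.56) and Slc43a3 (2.30), and 1 was lower, beside 2.79% and 4.47% of all genes. The lower one, Slc38a6 (0.416, 0.0494 to 1.56), rested on 2 UMIs against 71. Among other genes of the SLC7 family, Slc7a4 was past 2-fold lower in stressed cones (0.308, 0.0369 to 1.13), on 2 UMIs against 134. Slc7a14 stood at 0.981, on 1 UMI against 21. Slc7a7, under the minimum of 20 UMIs, went the other way, at 7.49 (1.74 to 25.3) on 4 against 11. Of 9 genes of the mTORC1 kinase and its amino acid sensors, 1 was higher in cones, a count near the share of all genes. It was the leucine sensor Sesn2 (7.71), which is also on the ATF4 target list. Of 12 targets of the other branches of the unfolded protein response, Herpud1 (5.50) and Xbp1 (2.09) were higher in cones and Creld2 (0.378) was lower. The shares of all genes were 6.33% and 4.56%. None of 8 immediate early and heat shock genes passed 2-fold in cones. In progenitors Herpud1 (4.44) was higher and Xbp1 stood at 0.926. Edem1 (0.419, 5 UMIs against 176) and the heat shock gene Hsph1 (0.452, 15 against 490) were lower there. The 12 cone markers summed to 5430 CPM in stressed and 6151 in other cones. RGC markers summed to 670.1 and 353, and their part in the ratios was not tested.

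Among GFP- cells, 5 of the 10 transporters were at least 2-fold higher in progenitor-like than in neuron-like cells and none was lower, against 19.1% of 12944 genes higher and 18.1% lower. These cells came from the same library, with medians of 9214 and 7833.5 UMIs. Slc7a5 stood at 36.8 CPM in progenitors (718 UMIs) and 3.35 in neurons (17 UMIs), a ratio of 10.99 (6.81 to 19.0). Slc7a3 stood at 4.05 (79 UMIs) against 0.394 (2 UMIs), a ratio of 10.3 (2.75 to 86.3). Few molecules of either gene were found in neurons. Slc1a5 had a ratio of 4.96 (3.00 to 8.79), Slc1a4 of 3.09 (1.91 to 5.32) and Slc7a1 of 2.85 (1.91 to 4.44). Without the upper limit on genes per cell, the neuron-like class went from 594 to 1333 cells and Slc1a4 was no longer past 2-fold (log2 ratio 0.80). No Slc7a8 UMI was found in neurons against 22 in progenitors, which gave a level at least 1.91-fold higher in progenitors, with 3 counts taken as the floor of the group.

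The heavy chain was shared more evenly, with Slc3a2 at 129 in progenitors and 92.4 in neurons, a ratio of 1.39 (1.26 to 1.54). Slc7a6 stood at 16.3 and 16.1, and the interval of the ratio was 0.789 to 1.30. Slc7a11 stood at 3.48 and 4.33, with a ratio of 0.804 (0.491 to 1.37). Slc38a2 was lower in progenitors, at 70.7 against 94.5, a ratio of 0.748 (0.674 to 0.832). Precursors lay near the neurons for Slc7a5 (3.95), Slc7a1 (3.69) and Slc1a4 (4.21), with overlapping intervals, and between neurons and progenitors for Slc1a5 (10.5, 7.52 to 14.3), where the interval of progenitors (13.9 to 17.5) overlapped. No Slc7a3 UMI was found in the 465 precursors, which allows up to 0.645% of cells with a UMI when 3 counts are taken as the limit.

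Within the progenitors, 4 of the 10 were at least 2-fold lower in the 284 neurogenic RPC-like cells than in the 1843 multipotent RPC-like cells, against 13.8% of 12269 genes lower and 5.4% higher. Slc7a5 stood at 11.9 against 40.6 (ratio 0.293, 0.198 to 0.420), Slc1a4 at 5.38 against 11.8 (0.455, 0.244 to 0.782) and Slc1a5 at 8.07 against 16.8 (0.481, 0.293 to 0.749). No Slc7a3 UMI was found in neurogenic cells against 79 in multipotent cells, at least 4.05-fold lower at the same floor. Slc7a1 did not follow, with 14.6 in both classes and a ratio of 1.0005 (0.691 to 1.41). Slc3a2 stood at 78.4 against 136, a ratio of 0.575 (0.496 to 0.664). Stressed cells made up 1.41% of the neurogenic and 6.999% of the multipotent cells.

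Between the neuron classes, only 5 of the 10 reached 20 UMIs in both groups together. Of these, 1 was at least 2-fold lower in AC/HC-like than in RGC-like cells, against 7.46% of 10020 genes lower and 10.9% higher. This was Slc7a11, at 1.99 CPM (5 UMIs) against 6.63 (17 UMIs), with an interval of the ratio from 0.0865 to 0.847. Slc1a5, under that minimum, stood at 0.795 (2 UMIs) against 5.46 (14 UMIs). Both rest on few molecules, and the RGC-like cells were deeper (median 11739 against 6741 UMIs).

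Across the gates, 3 of the 10 were at least 2-fold higher in GFP+ than in GFP- cells and none was lower, against 22.4% of 14167 genes higher and 15.5% lower. These were Slc7a8 (9.74 against 0.831 CPM, ratio 11.7, 7.64 to 18.7), Slc7a3 (19.0 against 2.86, ratio 6.64, 5.202 to 8.54) and Slc1a5 (34.3 against 13.0, ratio 2.63, 2.31 to 3.01). The median log2 ratio of all genes was 0.30 on this scale, so ratios near 1 are below the typical gene. Slc7a1 had a ratio of 1.11 (0.931 to 1.33), and its direction flipped with TMM scaling (log2 ratio 0.16 against -0.17). Slc7a6 stood at 10.9 against 16.02, a ratio of 0.681 (0.568 to 0.813). The other 5, Slc7a5, Slc38a2, Slc1a4, Slc7a11 and Slc3a2, had ratios from 1.49 to 1.82.

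The same 3 genes were at least 2-fold higher in GFP+ cone-like than in GFP- progenitor-like cells, against 27.9% of 13611 genes higher and 15.3% lower, with a median log2 ratio of all genes of 0.40. The share of members past 2-fold was close to that background. Slc7a8 stood at 10.1 against 1.13 (ratio 8.96, 5.69 to 14.8), Slc7a3 at 19.9 against 4.05 (4.92, 3.82 to 6.40) and Slc1a5 at 34.3 against 15.6 (2.19, 1.89 to 2.54). With TMM scaling Slc1a5 was no longer past 2-fold (log2 ratio 0.76), and Slc1a4, with a ratio of 1.20 (0.983 to 1.47), changed direction (log2 ratio 0.27 against -0.11). Gate, library and depth cannot be told apart from cell class in this comparison.

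Ratios between cones and progenitors moved when stressed cells were left out. With stressed cells left out on both sides, 2 of the 10 stayed past 2-fold, against 27.7% of 13537 genes: Slc7a8 at 8.48 (5.38 to 14.0) and Slc7a3 at 3.49 (2.54 to 4.87). The ratio of Slc7a5 went from 1.30 to 1.01 (0.886 to 1.15), that of Slc7a11 from 1.59 to 0.907 (0.593 to 1.37) and that of Slc1a4 from 1.20 to 1.01 (0.784 to 1.29). With the stress-led cluster also left out, the ratio of Slc7a8 was 8.63. The ratios of Slc7a3 and Slc7a5 were not read without that cluster, since it is led by these genes and holds GFP+ cells almost alone. Their ratios of 3.49 and 1.01 therefore include its 81 cells with no stress UMI, whose levels of both genes overlapped those of all stressed cones pooled.

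**Figure D5:**
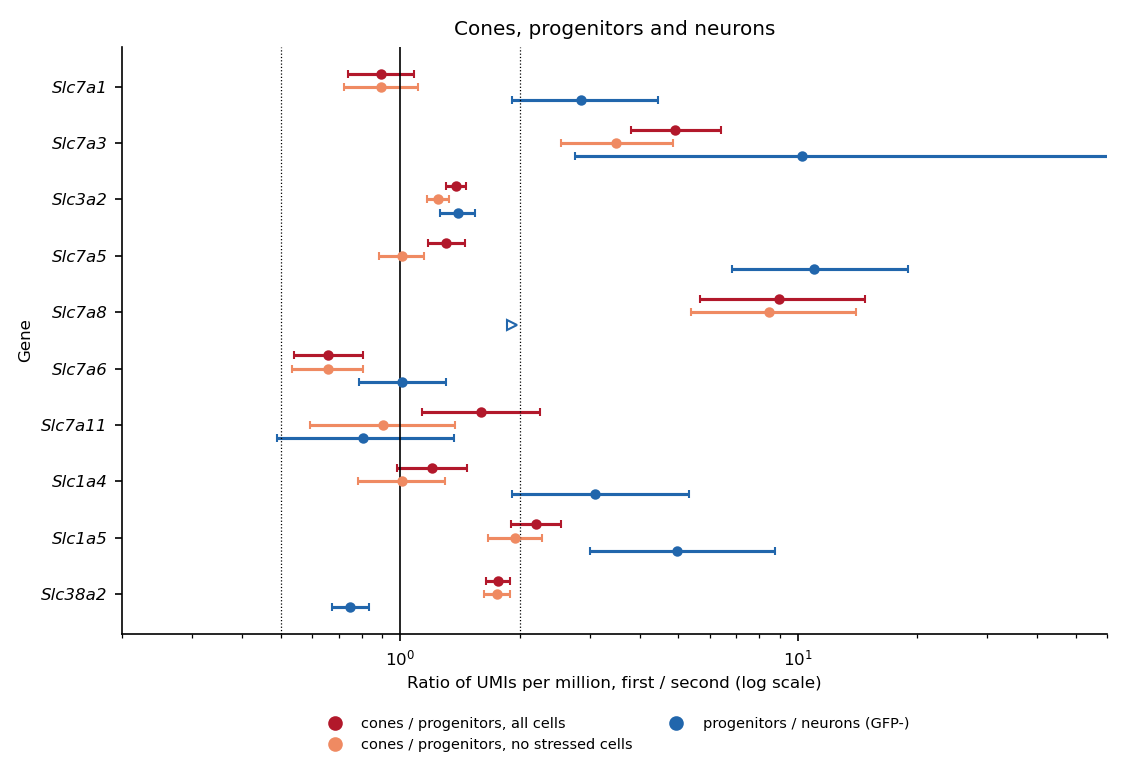
Ratio of CPM between classes (log axis) for each transporter: GFP+ cones over GFP- progenitors with all cells and without stressed cells, and GFP- progenitors over GFP- neurons, with 95% intervals; an open triangle marks a lower bound. Slc7a8 was 8.96-fold higher in cones than in progenitors with all cells and 8.48-fold without stressed cells, whereas Slc7a5 went from 1.30 to 1.01.

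Slc7a8 was the member whose UMIs lay mostly in cones without a stress mark, which held 76.7% of its UMIs in kept cells of both libraries. It was detected in few cells at any depth, 3.87% of other cones and 1.003% of other progenitors, or 2.40% and 0.301% thinned. It varied within the cones, at 15.1 CPM in the larger cone-like cluster, led by Unc13c, Aipl1 and Rd3 (1820 cells), and 5.26 in the next, led by Fabp7 (1383 cells), a ratio of 2.87 (1.93 to 4.37). Slc7a3 (5.16), Slc1a4 (3.43), Slc7a11 (3.01) and Slc7a5 (2.43) were also past 2-fold between these clusters, against 4.15% of 11891 genes. The clusters differed in stressed cells too (2.47% and 0.795%), and these ratios are a description of the clusters.

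Other cones also stood above neuron-like cells, with 6 of the 10 at least 2-fold higher and none lower, against 24.7% of 12669 genes higher and 11.4% lower. The ratio was 26.7 for Slc7a3 (7.25 to 223, against 2 UMIs in neurons), 9.53 (5.79 to 16.8) for Slc1a5, 9.17 (5.66 to 15.9) for Slc7a5, 2.41 for Slc1a4 and 2.14 for Slc7a1. Slc7a8 was at least 17.3-fold higher, with the floor of 3 counts for the neurons. Slc7a6 was the exception in direction along with Slc7a11, with ratios of 0.665 (0.503 to 0.884) and 0.698 (0.405 to 1.23). The order of levels for Slc7a5 was thus stressed cones (404), stressed progenitors (131), other cones and other progenitors (30.7 and 30.4, not apart) and then precursors and neurons (3.95 and 3.35, not apart). In this order the other cones include the 81 cells of the stress-led cluster with no stress UMI, whose Slc7a5 level overlapped that of all stressed cones pooled. For Slc1a5 it was stressed cones (122), other cones (30.02), progenitors with and without stress (18.6 and 15.4, not apart), precursors (10.5) and neurons (3.15), where stressed progenitors (11.8 to 27.9) also overlapped other cones (27.1 to 33.1), and both groups of progenitors overlapped precursors.

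The lists of other carriers split between the classes. Of 21 measured, 7 were at least 2-fold higher and 7 lower in GFP- progenitors than in neurons (19.1% and 18.1% of all genes), with the glial glutamate carrier Slc1a3 at 117 against 6.11 CPM and the glutamate carrier Slc1a6 at 1.49 against 121. Slc38a1 (ratio 0.676), Slc38a10 (0.478), Slc6a6 (0.485) and Slc43a2 (0.240) stood higher in neurons. Of 23 measured between cones and progenitors, 13 were higher in cones and 6 lower (27.9% and 15.3% of all genes). Slc1a2 stood at 145 in cones against 0.922 in progenitors and Slc38a3, a glutamine carrier, at 52.9 against 5.74, while Slc1a3 stood at 15.9 against 117. Slc38a1 (2.14) and Slc6a6 (3.76) were also past 2-fold, and Slc38a10 was not (1.71).

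For each transporter the genes with the most similar pattern were sought over 9 groups of cells and 8408 genes by Pearson correlation of log2(CPM + 1). This is a description only, since the groups share 2 libraries. Only cones were split by stress, and the stressed cones weigh on most patterns. The first genes were Atf3 for Slc7a3 (r = 0.98), Cebpb for Slc7a5 (0.98), Nars for Slc3a2 (0.99), Cars for Slc1a4 (0.98), Acap2 for Slc7a1 (0.99) and Cox10 for Slc7a11 (0.97), followed for the last by Atf5 (0.94). Atf3, Cebpb, Nars, Cars, Atf5 and the second gene of Slc7a1, Mthfd2 (0.97), were on the ATF4 target or tRNA synthetase lists. For Slc7a8 it was Tubgcp5 (0.99), for Slc1a5 Selt (0.97), for Slc38a2 Socs7 (0.99) and for Slc7a6 Smad3 (0.92).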

How the data were processed

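GFP+ and GFP- cells were read on a 10x 3′ platform. The authors deposited matrices of raw UMI counts per gene and cell from Cell Ranger 2.1.1 on mm10, and gene positions are those of the GRCm38 annotation. The cell filter required 250 to 3500 genes and less than a 0.25 fraction of mitochondrial UMIs. Depth was a median of 3894 and 8848 UMIs per kept cell, and precision was given as exact Poisson, conditional binomial and Clopper-Pearson intervals. Cells were clustered with Seurat 5.3.0 (30 principal components, UMIs, genes and cell cycle scores regressed out), with the members and ATF4 targets left out of the variable genes. The lowest resolution with at least 9 clusters gave 12, which were named by fixed markers with a rule set after the clusters were seen. Scrublet (scanpy 1.11.5) called 3 GFP+ and 55 GFP- doublets, 2 of them among kept cells, and doublets were left in. The GFP+ calls, 0.0805% of cells, may mean that the calling did not work there. UMIs were summed per group and scaled to CPM, and a ratio of 2 was called. A gene at 0 entered at 3 counts, or at a ratio of 1 in medians where these counts gave no direction. The ratio and interval code was checked on counts simulated with known folds. All 10 members were named in each comparison. For gene lists, up to 6 genes with the most UMIs were named. Members and lists were chosen with earlier results of these data known. Alternatives covered scaling (TMM, edgeR 4.0.16), cell filters, thinning, clustering, folds and stress rules.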

Additional observations from a re-analysis of the deposited data

How the results depend on the processing

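Counts of members past 2-fold were recomputed under other filters, scalings, clusterings, folds and definitions of stressed cells, and 126 of these counts were within 1.5 times the reported ones and 6 were not. At a fold of 1.5, 7 members were higher in GFP+ than in GFP- cells (37.6% of all genes), and 5 were higher (42.7%) and 1 lower (Slc7a6, 21.1%) in cones against progenitors. With stressed GFP- cells defined by Ddit3 or Atf3, 2 members were higher (Slc7a1 and Slc7a3, 1.21% of all genes), and in thinned GFP- cells 1 was lower (Slc7a6, 7.69%). Without the stress-led cluster, 1 member was lower in stressed cones (Slc7a8, 5.84%). The cause was not tested in any of these. Of the single-gene log2 ratios, 481 stayed within their counting interval and 65 moved, with no called ratio reversed. With Ddit3 or Atf3 the log2 ratios of stressed cones were 2.75 for Slc7a3, 1.72 for Slc7a11, 2.11 for Slc7a5 and 1.06 for Slc3a2. Slc7a11 passed 2-fold in stressed GFP- cells defined by 2 UMIs (log2 ratio 1.01) or by 1 UMI of each gene (1.25), as did Slc1a5 under the latter (1.10), and Slc7a5 between the gates without the upper gene limit (1.01). Slc7a8 gave no ratio in stressed GFP- cells under the reported setting and neither did Slc7a3 when thinned (0 UMIs against 18). Leaving out the stress-led or the histone-led cluster, cells with markers of other types, or GFP- cells other than progenitors were settings chosen after seeing the data. No paired analysis was possible because each gate had 1 library, and no replicate could be left out. Genes with few UMIs, Slc7a8 and Slc7a11 above all, limit the ratios, and the shallower GFP+ library limits what can be detected there.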

Other observations

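Some cells fell in clusters named for the other gate. In the 290 GFP+ cells that clustered as multipotent RPC-like, cone markers summed to 5771 CPM and multipotent RPC markers to 1409, so the cluster name went against their markers. Slc7a8 stood at 7.40 CPM (3.69 to 13.2) in these cells, against 1.12 (0.676 to 1.75) in GFP- cells of the same clusters. In 203 GFP- cells of the cone-like clusters, cone markers summed to 973 and multipotent RPC markers to 4343, and Slc7a8 stood at 1.18 (0.143 to 4.25, 2 UMIs). Slc1a5 stood at 37.0 (27.9 to 48.2) in the first set and at 18.2 (12.4 to 25.9) in the second.

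Stressed cells were too few in other GFP- classes to compare. The 7 stressed precursors held 7 UMIs of Slc3a2 and 11 of Slc38a2 and none of Slc7a1, Slc7a3, Slc7a5, Slc7a8, Slc7a11, Slc1a4 or Slc1a5. The 5 stressed neuron-like cells held 6 UMIs of Slc3a2, 5 of Slc38a2 and 2 of Slc1a5 and none of the other members.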
